A study of Mus musculus with 48 samples.

Results

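The comparison described here sets mouse brain regions from 5xFAD mice that also lack Lyn against regions from 5xFAD mice, and it rests on 10 of the 16 columns of the deposited table, 5 headed 5xFAD-LynKO and 5 headed 5xFAD. RNA was read with GeoMx digital spatial profiling, in which a region of a tissue section is picked under the microscope and the tags of the RNA probes bound there are released by light and sequenced. The regions were picked on frozen sections of perfused, fixed brain after staining for TMEM119, a microglial surface protein, and GFAP, the intermediate filament of astrocytes, and the titles name 48 segments in 24 regions. No column heading names a marker. TMEM119-positive segments were assumed, since the series says that its analysis concerned microglial expression, but which titled segment each one holds is not known.

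Both groups carry the 5xFAD transgenes, mutant human genes, APP among them, driven in neurons by the Thy1 promoter, which cause early amyloid deposition. The 5xFAD-LynKO group comes from a cross of that line with a Lyn knockout, and the 5xFAD group keeps its Lyn gene. The sources used here give no age, sex, kind of Lyn deletion or number of animals. The series describes 6 regions for each brain slice and marker, so several columns under one heading may stem from the same mouse or slice. All p-values are too small in that case. The 6 columns headed WT entered no comparison and served only to place the edges of a stretch of the table described below.

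Lyn is a tyrosine kinase of the Src family that is prominent in myeloid cells, microglia included. It phosphorylates activating receptors and their adaptors, and also inhibitory receptors that recruit the phosphatases SHP-1 and SHIP1, so it can both start and restrain signals. TLR4 is the receptor for bacterial lipopolysaccharide and signals through MyD88 and TRIF to NF-kB and interferon genes, and in 5xFAD brain microglia gather around plaques and take on a disease-associated state. The comparison asks which RNAs differ in 5xFAD brain when Lyn is missing.

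All levels are given in 1 of 2 ways, as a ratio to the median target of the same column, or as a ratio to the negative control probe of the same column, which matches no mouse transcript. Differences are log2 values of the first kind, 5xFAD-LynKO minus 5xFAD, with limma tests over 19962 targets and Benjamini-Hochberg adjustment. Above background means a signal over 1.5 times that of the negative probe in 5 or more of the 10 columns, and 2010 targets met this. The 5 columns of 1 genotype suffice for it, so the sign of a difference is not independent of this filter. Total implied probe counts were 3207095 to 5793534 in the 5xFAD-LynKO columns and 3205406 to 4148785 in the 5xFAD columns.

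Regions of one genotype held different kinds of tissue, and this spread was wide beside the difference between genotypes. Targets over 2 times the negative probe numbered 121, 1032, 584, 344 and 998 in 5xFAD-LynKO columns 1 to 5, against 367, 509, 298, 793 and 329 in 5xFAD columns 1 to 5. The groups overlapped, with means of 615.8 ± 400 in 5xFAD-LynKO and 459.2 ± 203 in 5xFAD (SD, n = 5 each; exact two-sided permutation p = 0.413). Slc17a7, the vesicular glutamate transporter of cortical excitatory neurons, read 1.60, 5.68, 5.72, 1.29 and 1.13 times the negative probe in 5xFAD-LynKO columns 1 to 5, against 2.79, 5.39, 0.976, 5.48 and 0.884 in 5xFAD columns 1 to 5. Gad2, a GABA-synthesising enzyme, read 1.14, 1.18, 1.17, 1.68 and 3.22 in 5xFAD-LynKO columns 1 to 5, against 1.03, 1.19, 2.72, 1.15 and 2.09 in 5xFAD columns 1 to 5. So 5xFAD-LynKO column 5 and 5xFAD columns 3 and 5 combined a high Gad2 signal with Slc17a7 near the negative probe. Ppp1r1b, which encodes the DARPP-32 phosphoprotein of striatal projection neurons, read 8.57 times the negative probe in 5xFAD-LynKO column 4, against 0.864 to 1.35 in the other 5xFAD-LynKO columns and 0.956 to 1.46 in the 5xFAD columns. The mean log2 level of 13 pan-neuronal genes ran from 0.70 to 1.95 in 5xFAD-LynKO columns and from 1.04 to 1.67 in 5xFAD columns. How far the brain area of each region enters the differences below was not tested.

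**Figure D1:**
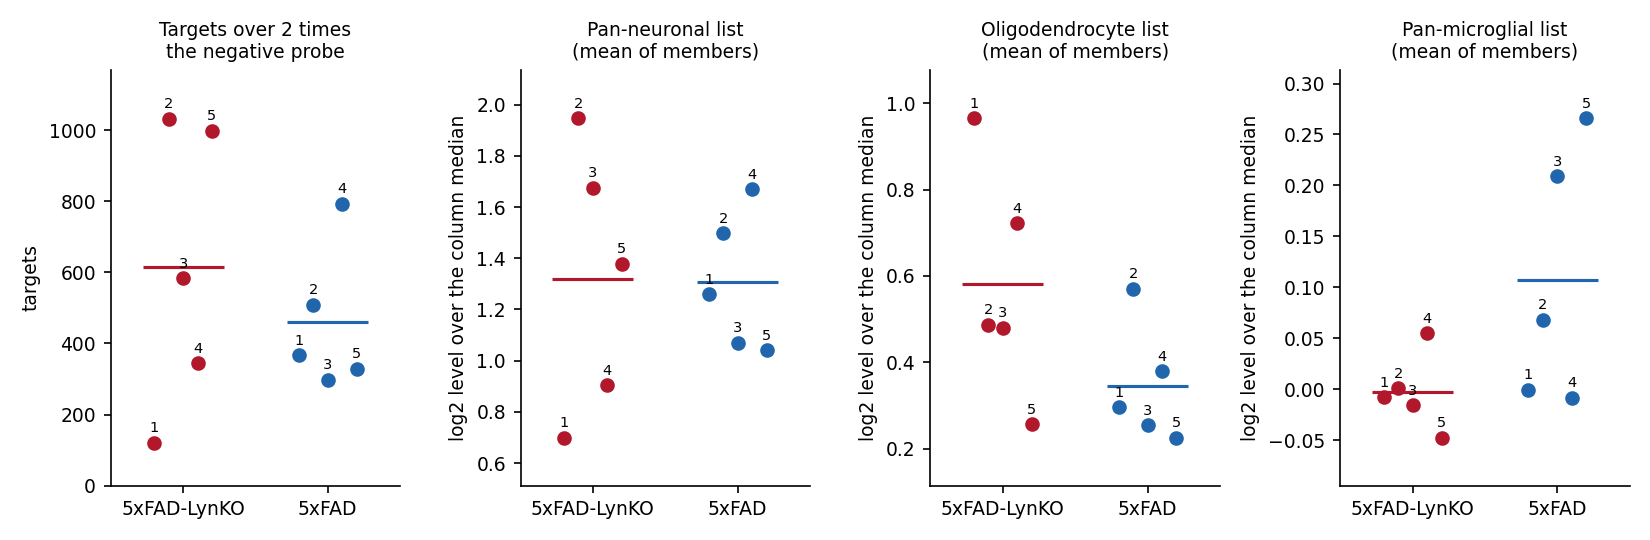
Values of the 10 columns, with the column number above each point and the mean as a line; from left to right, the count of targets at more than 2 times the negative probe, and the mean log2 level over the column median of 13 pan-neuronal, 13 oligodendrocyte and 17 pan-microglial genes. In every panel the 5xFAD-LynKO and 5xFAD columns overlap, and the neuronal list runs from 0.70 to 1.95 within 5xFAD-LynKO.

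The defining markers of microglia were mostly at background in columns taken as microglial. Of 17 pan-microglial genes 1 was above background, and of 13 homeostatic microglial genes 0 were, whereas 11 of 13 pan-neuronal, 5 of 13 oligodendrocyte and 4 of 16 astrocyte genes were. Tmem119 itself read 0.785, 0.819, 0.729, 0.794 and 0.812 times the negative probe in 5xFAD-LynKO columns 1 to 5, against 0.819, 0.578, 0.696, 0.676 and 0.657 in 5xFAD columns 1 to 5. The Tmem119 probe was therefore below the negative probe in all 10 columns. Gfap averaged 1.29 times the negative probe in 5xFAD-LynKO and 1.23 in 5xFAD, also at background. The data do not bear out a microglial label for these columns by its own markers, and they are called by their headings.

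Loss of Lyn could not be read from the Lyn probe. Lyn read 1.13, 1.32, 1.09, 1.28 and 1.21 times the negative probe in 5xFAD-LynKO columns 1 to 5, against 1.23, 1.12, 1.07, 1.16 and 1.15 in 5xFAD columns 1 to 5. The groups overlapped and both lay under 1.5 times the negative probe. Relative to the column median Lyn averaged 1.13 ± 0.085 in 5xFAD-LynKO and 1.09 ± 0.057 in 5xFAD (SD, n = 5 each), a difference of 0.06 log2 with a 95% interval of -0.10 to 0.21 (limma adjusted p = 0.776, exact permutation p = 0.333). Where this probe binds relative to the deletion is unknown, so it does not check the headings.

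Few targets differed between the 2 genotypes at the adjusted threshold. An adjusted p under 0.05 in the limma fit, called passing here, was reached by 4 of the 19962 targets, a share of 0.0200%, with 1 higher and 3 lower in 5xFAD-LynKO. With quantile normalization 111 passed, 89 higher and 22 lower. All 4 were at background, and 0 of the 2010 targets above background passed, their smallest limma adjusted p being 0.0769. At an unadjusted limma p under 0.05 there were 1686 higher targets (8.45%) and 1249 lower ones (6.26%). The counts of each gene list below are to be read beside these shares. The columns of the 2 groups did not overlap for 268 targets that were higher (1.34%) and 269 that were lower (1.35%). The median difference over all targets was 0.00 log2, and 95% of them lay between -0.23 and 0.29. Of the 19962 targets 17952 were at background, where any true difference in signal is understated. Whether a given target there holds signal beyond background was not tested. Above background the median difference was 0.05, with 1369 targets positive and 641 negative. A target can enter this set through 1 genotype alone, so the filter bears on these signs. The median half-width of the 95% interval above background was 0.23 log2, a 1.18-fold change, and for 1986 of the 2010 the interval lay within a 2-fold change either way.

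**Figure D2:**
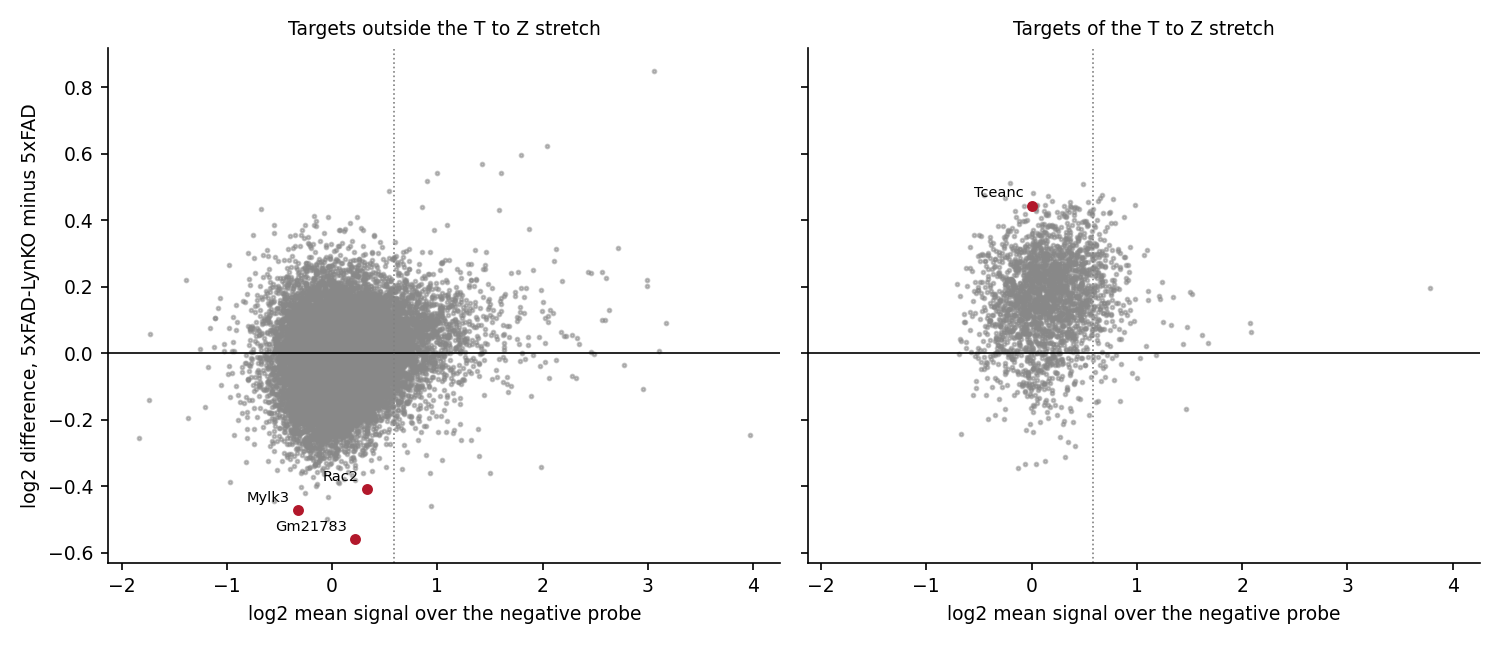
Log2 difference of each target (vertical axis, 5xFAD-LynKO minus 5xFAD) against its log2 mean signal over the negative probe, for targets outside (left) and inside (right) the stretch of the table described in the text; the dotted line marks 1.5 times the negative probe and red points are the 4 targets with a limma adjusted p under 0.05. All 4 lie left of the line, and inside the stretch 88.6% of the points lie above 0.

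The 4 targets that passed were Gm21783, Mylk3, Rac2 and Tceanc. Rac2, a small GTPase of blood-derived cells that serves the phagocyte oxidase and cell movement, read 1.08, 1.10, 1.07, 1.06 and 1.13 times the negative probe in 5xFAD-LynKO columns 1 to 5, against 1.47, 1.5, 1.37, 1.36 and 1.48 in 5xFAD columns 1 to 5. Every 5xFAD-LynKO column was below every 5xFAD column, and both sets were tight. Relative to the column median Rac2 was 1.02 ± 0.017 in 5xFAD-LynKO and 1.36 ± 0.067 in 5xFAD (SD, n = 5 each), so it fell by 0.41 log2 with a 95% interval of -0.55 to -0.26 (limma adjusted p = 0.0471). Both groups were at background.

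Gm21783, a predicted gene that RefSeq places on the Y chromosome, read 0.892, 0.988, 0.831, 1.04 and 0.977 times the negative probe in 5xFAD-LynKO columns 1 to 5, against 1.54, 1.36, 1.32, 1.46 and 1.24 in 5xFAD columns 1 to 5. It fell by 0.56 log2 with a 95% interval of -0.73 to -0.39 (limma adjusted p = 0.0182), again with no overlap. Of the 17 targets that RefSeq places on the Y chromosome 0 were above background, and 8 had a negative and 9 a positive difference. Uba1y, a ubiquitin-activating enzyme with the second lowest p of the 17, was at 0.969 times the negative probe in 5xFAD-LynKO and 0.743 in 5xFAD, a difference of 0.37 (limma adjusted p = 0.110). Eif2s3y, a translation factor subunit, differed by -0.23, Kdm5d, a histone demethylase, by -0.22, Ddx3y, an RNA helicase, by -0.15 and Uty, another demethylase-family gene, by 0.05. These 5 were chosen after their values were seen, and the last 4 had limma adjusted p of 0.161, 0.184, 0.380 and 0.832. Uba1y and Uty lie in the stretch of the table described below, in which 88.6% of targets had a positive difference. Gm10256, with the third lowest p of the 17, lies outside it and differed by -0.32 (limma adjusted p = 0.115). Whether the animals of the groups differed in sex was not tested.

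Mylk3, the myosin light chain kinase of heart muscle, averaged 0.673 times the negative probe in 5xFAD-LynKO and 0.929 in 5xFAD and fell by 0.47 log2 (limma adjusted p = 0.0471). Tceanc, a gene with a domain of transcription elongation factors, averaged 1.16 in 5xFAD-LynKO and 0.847 in 5xFAD and rose by 0.44 log2 (limma adjusted p = 0.0471). The call of Rac2, of Mylk3 and of Tceanc held in 1 of the 10 fits that left out a column, and that of Gm21783 in 4 of 10. In these fits the Rac2 difference stayed between -0.43 and -0.40 and its limma adjusted p ran from 0.0164 to 0.226. Without 5xFAD column 4 all 4 targets passed, among 687 calls in all. With no mean trend in the spread estimate, a setting chosen after the data were seen, 0 targets passed (smallest limma adjusted p = 0.0654, 2828 targets at an unadjusted p under 0.05).

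**Figure D3:**
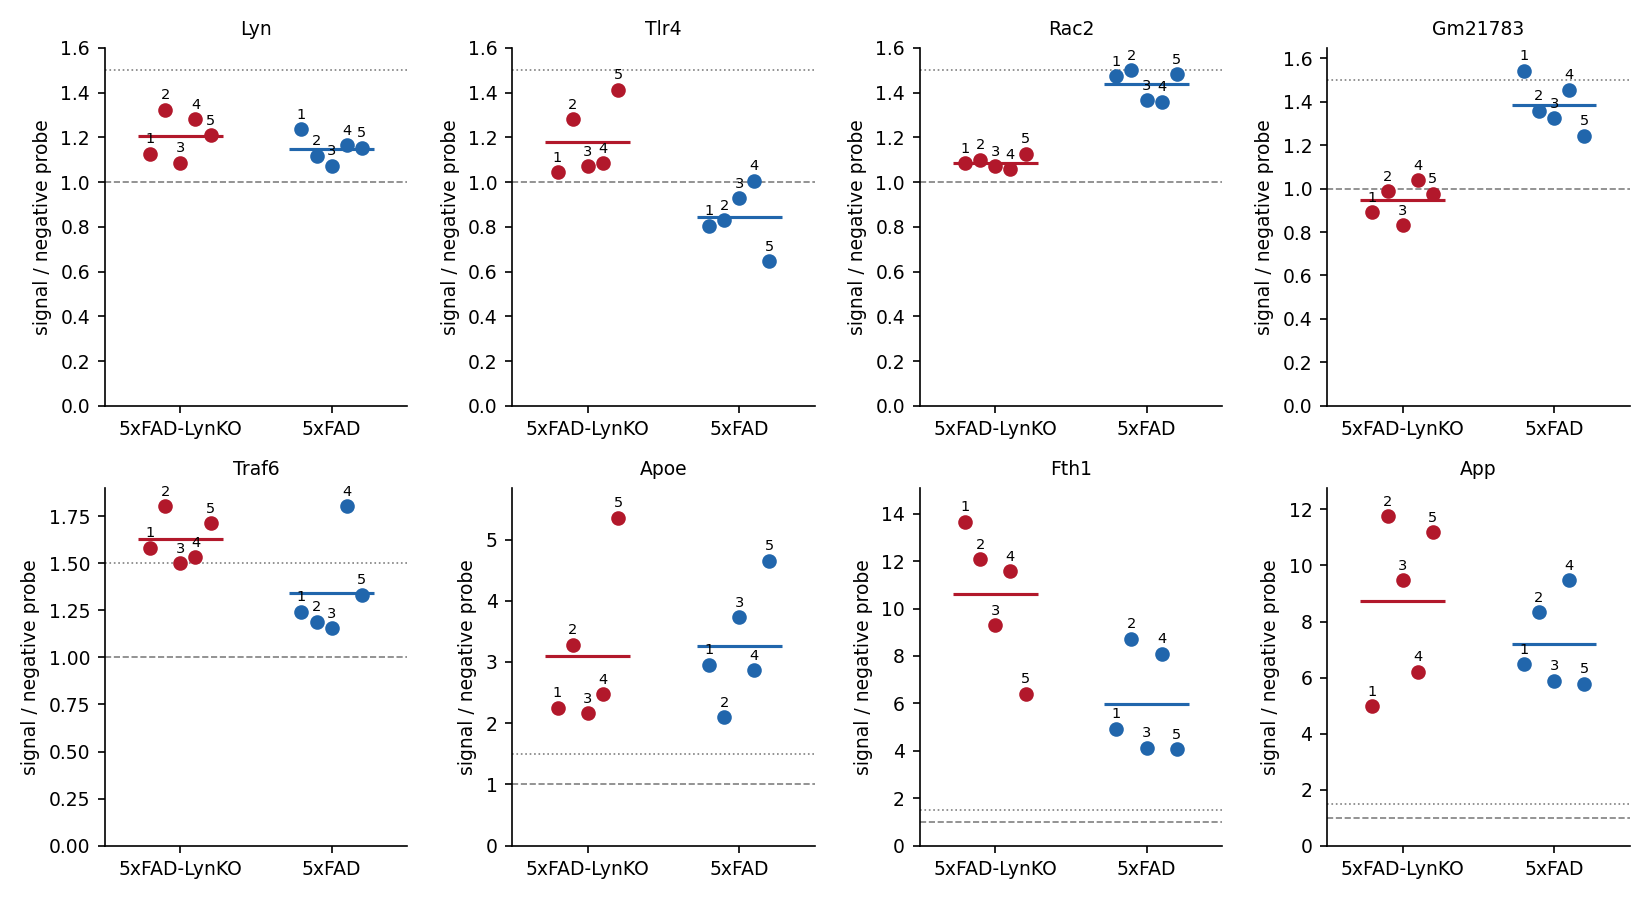
Ratio of the signal to the negative probe of the same column for 8 targets, with the column number above each point and the mean as a line; the dashed line marks the negative probe and the dotted line 1.5 times it. For Tlr4, Rac2 and Gm21783 the 5xFAD-LynKO and 5xFAD columns do not overlap, while for Lyn, Traf6, Apoe, Fth1 and App they do.

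Tlr4 was higher in every 5xFAD-LynKO column than in any 5xFAD column but did not pass the test across targets. It read 1.05, 1.28, 1.07, 1.08 and 1.41 times the negative probe in 5xFAD-LynKO columns 1 to 5, against 0.805, 0.829, 0.928, 1.00 and 0.645 in 5xFAD columns 1 to 5. The 5xFAD signal was thus mostly below the negative probe and the 5xFAD-LynKO signal a little above it. The log2 difference was 0.48 with a 95% interval of 0.27 to 0.69 (limma adjusted p = 0.0769), and the exact two-sided permutation p was 0.00794, the smallest that 252 splits of 5 against 5 can give. Groups without overlap always give this value, and 268 higher (1.34%) and 269 lower (1.35%) of all targets had such groups. Leaving out 5xFAD column 4 took the limma adjusted p of Tlr4 to 0.0188, with a difference of 0.54. With any other column left out Tlr4 did not pass, and its limma adjusted p ran from 0.0775 to 0.254.

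Where a target stood in the alphabetical order of the table went with its difference. A stretch of 2390 neighbouring targets, Tbc1d22a to Zfp131 and 12.0% of the table, was set apart by comparing WT column 4 with the other WT columns, which take no part in this comparison. In that stretch 2117 targets (88.6%) had a positive difference, and it held 1010 of the 1686 targets that were higher at an unadjusted limma p under 0.05. The median difference was 0.17 log2 inside the stretch and -0.01 outside it. The median log2 level of the stretch was 0.05, 0.22, 0.06, 0.08 and 0.24 in 5xFAD-LynKO columns 1 to 5, against -0.02, -0.08, -0.10, 0.12 and -0.08 in 5xFAD columns 1 to 5. 5xFAD column 4 lay among the 5xFAD-LynKO columns, and the others lay below them (exact two-sided permutation p = 0.0317). The stretch is an alphabetical block and not a gene group, and its cause was not tested.

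Chemosensory receptors showed the same division. Olfactory receptors, which brain tissue scarcely uses, lie outside the stretch, and of 923 of them 8 were higher and 100 lower at an unadjusted limma p under 0.05, with a median difference of -0.05 log2. Vomeronasal receptors, which serve pheromone sensing and lie wholly inside the stretch, had 61 higher and 1 lower among 187, with a median of 0.15. Outside the stretch, 5 windows of 100 targets had a median difference over 0.1, and they run together up to Ina. The windows outside it spanned -0.13 to 0.17 in all, and the windows inside it 0.05 to 0.25.

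**Figure D4:**
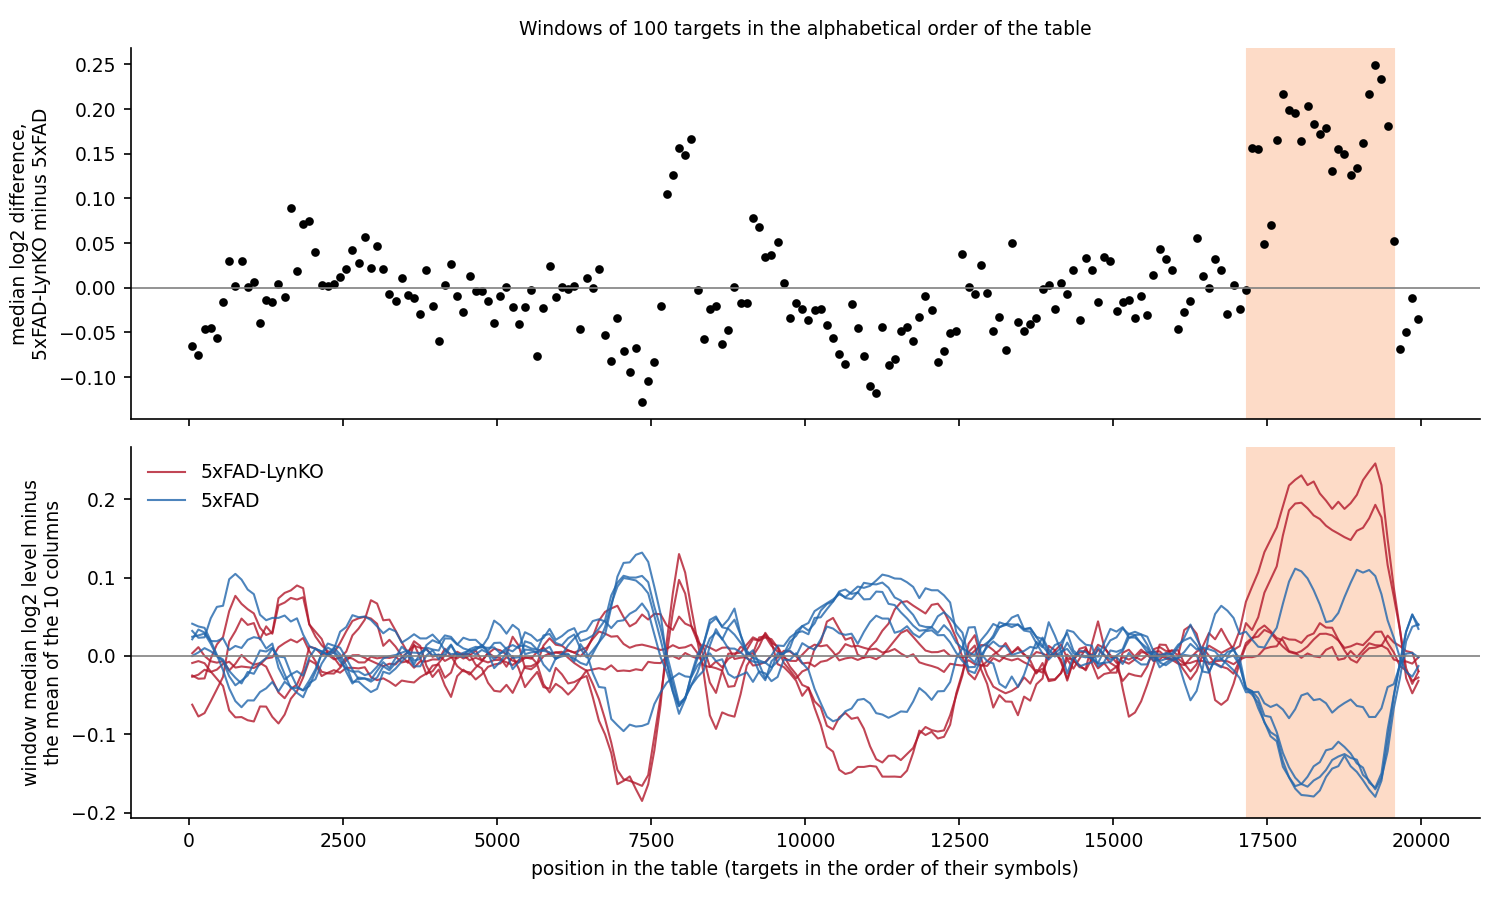
Median log2 difference (5xFAD-LynKO minus 5xFAD) of windows of 100 targets in table order (top), and the window median of each column minus the mean of the 10 columns, averaged over 5 neighbouring windows (bottom); the shaded stretch runs from Tbc1d22a to Zfp131. Inside the stretch the windows reach 0.25, and 1 of the 5xFAD lines, column 4, runs among the 5xFAD-LynKO lines.

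The stretch holds Tlr4 and many other genes of interest here. In 149 of its 2390 targets all 5xFAD-LynKO columns were above all 5xFAD columns, and in 9 all were below. When each column was centred on the running median of 201 neighbouring targets, an alternative chosen after the data were seen, the Tlr4 difference was 0.40 and its columns still did not mix (exact permutation p = 0.00794, limma adjusted p = 0.219). The difference of Tmem119 was 0.20 before centring and 0.01 after it. With this centring 1 target passed, Gm21783, at -0.56 (limma adjusted p = 0.00438), with Rac2 at -0.38 and Tceanc, which lies in the stretch, at 0.32. Below, a gene that lies in the stretch is named as such with both values.

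The targets above background with the smallest p did not pass, and they are named only to fill the places of calls. Of these 11 on the higher side lie in the stretch without exception, with differences of 0.38 to 0.48 and limma adjusted p of 0.0769 to 0.115. Tpt1, a translationally controlled growth protein, was at 1.89, 2.73, 2.05, 2.07 and 2.73 times the negative probe in 5xFAD-LynKO columns 1 to 5, against 1.54, 1.70, 1.65, 1.96 and 1.48 in 5xFAD columns 1 to 5. The difference of Tpt1 was 0.44, and 0.29 after centring on table neighbours. Trim58, a ubiquitin ligase of red cell precursors, differed by 0.47 and by 0.27 after centring, and Yars, the tyrosyl-tRNA synthetase, by 0.48 and 0.26. Trim58 met the background limit through the 5xFAD-LynKO columns alone. Vps54 and Vps8, both vesicle tethering subunits, Washc4 of the WASH complex on endosomes, and Wdr76, Vwa1, Trim43a, Tmub1 and Yipf1 fill the other places. For Yars, Vps54, Vps8, Washc4, Wdr76, Vwa1, Tmub1 and Yipf1, column 4 was the only 5xFAD column over 1.5 times the negative probe.

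Of the 9 targets above background on the lower side 0 lie in the stretch. Slc22a15, an organic cation transporter, read 1.40, 1.52, 1.42, 1.48 and 1.44 times the negative probe in 5xFAD-LynKO columns 1 to 5, against 1.58, 1.82, 1.67, 1.75 and 1.94 in 5xFAD columns 1 to 5. Its columns did not overlap, and its difference was -0.28 (limma adjusted p = 0.141). Man2b2, a lysosomal mannosidase, read 1.66, 1.64, 1.64, 1.59 and 1.5 in 5xFAD-LynKO columns 1 to 5, against 1.85, 1.89, 1.84, 1.96 and 2.02 in 5xFAD columns 1 to 5. Its columns also stayed apart, with a difference of -0.26 (limma adjusted p = 0.171). P2rx5, an ATP-gated channel, differed by -0.23, and Rab11fip1, a recycling endosome adaptor, by -0.23. Rrnad1, Meox1, Junb, S100a9 and Rbm12 complete the 9, with limma adjusted p of 0.204 to 0.277. P2rx5 and Rrnad1 met the background limit through the 5xFAD columns alone. Among the 5xFAD-LynKO columns, Slc22a15 and Rbm12 exceeded 1.5 times the negative probe in column 2 alone and Meox1 in column 4 alone.

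Among the kinases closest to Lyn none passed. The 9 Src-family kinases had a median difference of 0.05 log2, beside 0.00 over all targets, with 0 higher and 1 lower at an unadjusted limma p under 0.05. Fgr, a member found in myeloid cells, read 1.07, 1.12, 1.05, 0.984 and 1.05 times the negative probe in 5xFAD-LynKO columns 1 to 5, against 0.969, 0.993, 0.956, 0.902 and 0.932 in 5xFAD columns 1 to 5, all at background. Relative to the column median its groups did not overlap, and the difference was 0.14 (limma adjusted p = 0.340). Fyn, the broadly expressed brain member, differed by -0.05 with a 95% interval of -0.26 to 0.16, Src by 0.02 and the T-cell kinase Lck by -0.21.

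Substrates and regulators of Lyn did not pass either. Of the 27 measured, 13 had a positive difference, 0 were higher and 1 lower at an unadjusted limma p under 0.05, and the median was -0.01. The lower one was Dok2, a docking protein that restrains myeloid signals, at 0.801 times the negative probe in 5xFAD-LynKO and 0.928 in 5xFAD, a difference of -0.22 (limma adjusted p = 0.216). Inpp5d, which encodes SHIP1, the lipid phosphatase brought to inhibitory receptors, read 0.824, 0.946, 0.756, 0.760 and 1.01 in 5xFAD-LynKO columns 1 to 5, against 0.921, 0.573, 0.655, 0.877 and 0.729 in 5xFAD columns 1 to 5. Its difference was 0.20 with a 95% interval of -0.04 to 0.44. Btk, a kinase that Lyn activates in B cells, differed by 0.13. The 2 members above background were Sirpa, the inhibitory receptor for CD47, at 1.85 times the negative probe in 5xFAD-LynKO and 1.70 in 5xFAD with a difference of 0.11, and Ptpn11, the phosphatase SHP-2, at 1.68 in 5xFAD-LynKO and 1.59 in 5xFAD with a difference of 0.06. For Sirpa and for Ptpn11 the 95% interval reached 0.38 and 0.26.

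Of 25 genes of the TLR4 receptor complex and its signalling, 0 passed, 4 were higher and 0 lower at an unadjusted limma p under 0.05, and the median was 0.01. Over all targets 8.45% were higher and 6.26% lower at that level, and in the stretch 42.3% were higher. The 4 were Tlr4, Tlr9, Ikbkg and Traf6, of which Ikbkg alone lies outside the stretch. Traf6, the ubiquitin ligase that carries the signal on from MyD88 and IRAK kinases, read 1.58, 1.80, 1.5, 1.53 and 1.71 times the negative probe in 5xFAD-LynKO columns 1 to 5, against 1.24, 1.19, 1.15, 1.80 and 1.33 in 5xFAD columns 1 to 5. 5xFAD column 4 read as high as the highest 5xFAD-LynKO column, and Traf6 differed by 0.28 before and 0.11 after centring on table neighbours. Tlr9, an endosomal sensor of DNA, differed by 0.32 and by 0.23 after centring. Ikbkg, the NEMO subunit of the IkB kinase complex, differed by 0.27 and by 0.12 after centring, and Ikbkb, a catalytic subunit of the same complex, by 0.16 and 0.02.

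Inflammatory outputs were at background throughout. Of 18 inflammatory mediators 0 were above background and 0 passed, with 0 higher and 2 lower at an unadjusted limma p under 0.05 and a median of -0.01. Ccl2, a monocyte chemoattractant, read 0.892, 0.937, 0.823, 0.827 and 1.06 times the negative probe in 5xFAD-LynKO columns 1 to 5, against 1.10, 1.15, 1.12, 1.02 and 1.06 in 5xFAD columns 1 to 5, a difference of -0.28 (limma adjusted p = 0.115). 5xFAD-LynKO column 5 was level with 5xFAD column 5, and the other 5xFAD-LynKO columns were lower than all of 5xFAD. Ptgs2, the inducible cyclooxygenase, differed by -0.18, Ccl5 by -0.16 and Casp1, the protease of inflammasomes, by 0.15. The 14 interferon-response genes had a median of 0.02 and 0 of them reached an unadjusted limma p under 0.05 in either direction. Of 10 antigen presentation genes 1 was lower at that level, the class II chain gene H2-Ab1, with a difference of -0.27 (limma adjusted p = 0.15).

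Microglial genes leaned to the lower side in 5xFAD-LynKO without passing. Most of these genes were at background, and the number of microglia, RNA per cell, brain area and noise near background cannot be told apart here. Of 17 pan-microglial genes 2 had a positive difference, 0 were higher and 2 lower at an unadjusted limma p under 0.05, and the median was -0.11, beside 0.00 over all targets. The mean log2 level of the list was -0.01, 0.00, -0.02, 0.05 and -0.05 in 5xFAD-LynKO columns 1 to 5, against 0.00, 0.07, 0.21, -0.01 and 0.27 in 5xFAD columns 1 to 5. The high values are those of 5xFAD columns 3 and 5, which had low Slc17a7 and high Gad2. 5xFAD-LynKO column 5 had low Slc17a7 and high Gad2 as well, but its mean for the list, -0.05, was the lowest in either genotype. The other 5xFAD columns overlapped the 5xFAD-LynKO columns. 5xFAD columns 3 and 5 also had the lowest chi-square per degree of freedom for implied counts within either genotype, 1.18 against 1.74 to 6.65 for other pairs. This measure grows with depth as well, and the depth of the columns differed. By the correlation of log2 values over targets above background 5xFAD columns 3 and 5 were not the closest, at 0.905, since 5xFAD-LynKO columns 2 and 3 reached 0.954. With 5xFAD columns 3 and 5 averaged to 1 column, chosen after the data were seen, 1 target passed.

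Among single microglial genes, Aif1, which encodes IBA1 and was the member above background, read 1.59, 2.36, 1.80, 1.75 and 2.07 times the negative probe in 5xFAD-LynKO columns 1 to 5, against 1.89, 1.53, 1.59, 2.60 and 1.67 in 5xFAD columns 1 to 5. It differed by 0.05 with a 95% interval of -0.23 to 0.33. Itgam, the CD11b integrin chain, differed by -0.25 (limma adjusted p = 0.212), and Ly86, which encodes the MD-1 partner of the receptor RP105, by -0.20. Csf1r, the receptor on which microglia depend for survival, differed by -0.11 with a 95% interval of -0.31 to 0.09, and the complement chain C1qb by -0.11.

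Of 13 homeostatic microglial genes 5 had a positive difference, 0 were higher and 3 lower at an unadjusted limma p under 0.05, and the median was -0.05. The 3 were the purinergic receptor P2ry13 at -0.22, the fractalkine receptor Cx3cr1 at -0.18 and the orphan receptor Gpr34 at -0.26, with limma adjusted p of 0.213, 0.257 and 0.284. Cx3cr1 read 1.16, 1.12, 0.972, 1.08 and 1.13 times the negative probe in 5xFAD-LynKO columns 1 to 5, against 1.12, 1.26, 1.24, 1.31 and 1.22 in 5xFAD columns 1 to 5. Only 5xFAD column 1 fell within the 5xFAD-LynKO columns. P2ry12, the ADP receptor of resting microglia, differed by -0.12.

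The disease-associated microglial genes differed little. Of 22 genes 13 had a positive difference, 0 were higher and 0 lower at an unadjusted limma p under 0.05, and the median was 0.03. Apoe, the lipid carrier that rises in this state, read 2.25, 3.28, 2.16, 2.48 and 5.36 times the negative probe in 5xFAD-LynKO columns 1 to 5, against 2.95, 2.09, 3.73, 2.86 and 4.65 in 5xFAD columns 1 to 5. Its groups overlapped fully, and it differed by -0.12 (exact permutation p = 0.690). Ctsd, a lysosomal protease, read 1.20, 2.19, 1.91, 1.72 and 2.51 in 5xFAD-LynKO columns 1 to 5, against 1.47, 1.83, 1.91, 2.10 and 2.13 in 5xFAD columns 1 to 5, and differed by -0.03 with a 95% interval of -0.34 to 0.29. Spp1, Cd63 and Axl, a phagocytic receptor, differed by 0.13, 0.13 and 0.12.

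Fth1 was the member of that list with the largest difference. This gene, the ferritin heavy chain that stores iron and is abundant in oligodendrocytes too, read 13.7, 12.1, 9.29, 11.6 and 6.41 times the negative probe in 5xFAD-LynKO columns 1 to 5, against 4.92, 8.72, 4.14, 8.10 and 4.06 in 5xFAD columns 1 to 5. The groups overlapped through 5xFAD-LynKO column 5, and the other 4 were above all of 5xFAD. Its difference was 0.85, with an exact permutation p of 0.0317 and a limma adjusted p of 0.720. The limma interval was -1.02 to 2.72 because the trend assigns a wide spread to targets of high signal, and with no trend it was 0.37 to 1.32 with an adjusted p of 0.159.

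Phagocytosis, complement and amyloid genes showed few differences. Of 21 phagocytic receptors and bridging molecules 1 was higher and 0 lower at an unadjusted limma p under 0.05, with a median of -0.04. The higher one was Tyro3, a receptor kinase that lies in the stretch, at 0.26 and at 0.10 after centring on table neighbours. Itgb3, an integrin chain and the member above background, read 1.55, 2.05, 1.75, 1.76 and 2.17 times the negative probe in 5xFAD-LynKO columns 1 to 5, against 1.64, 1.46, 1.60, 2.03 and 1.43 in 5xFAD columns 1 to 5, a difference of 0.18 (limma adjusted p = 0.471). Of 14 complement genes 1 was higher and 0 lower, the regulator Cr1l at 0.21, with a median of -0.01.

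Among 14 genes of APP and amyloid-beta processing 2 were higher and 0 lower at an unadjusted limma p under 0.05, with a median of 0.00. Adam10, the alpha-secretase, read 1.53, 1.91, 1.61, 1.49 and 2.04 times the negative probe in 5xFAD-LynKO columns 1 to 5, against 1.37, 1.49, 1.42, 1.72 and 1.34 in 5xFAD columns 1 to 5, a difference of 0.21 (limma adjusted p = 0.316). Ide, the insulin-degrading enzyme that also cleaves amyloid-beta, differed by 0.21 and by 0.08 after centring on table neighbours. App read 4.97, 11.8, 9.47, 6.20 and 11.2 times the negative probe in 5xFAD-LynKO columns 1 to 5, against 6.48, 8.32, 5.88, 9.48 and 5.78 in 5xFAD columns 1 to 5. The groups overlapped, and the difference was 0.22 (exact permutation p = 0.397, limma adjusted p = 0.946). It is not known whether the App probe also reads the human transgene. Its paralogues Aplp1 and Aplp2 both differed by 0.05.

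Of 20 survival and death genes 2 were higher and 0 lower at an unadjusted limma p under 0.05, with a median of 0.01. Bcl2l1, which encodes the survival factor Bcl-xL, read 1.5, 1.90, 1.82, 1.51 and 2.10 times the negative probe in 5xFAD-LynKO columns 1 to 5, against 1.37, 1.36, 1.36, 1.69 and 1.36 in 5xFAD columns 1 to 5. 5xFAD column 4 lay within the 5xFAD-LynKO range and the other 5xFAD columns below it, and the difference was 0.29 (limma adjusted p = 0.173). The other was Bbc3, which encodes the death factor PUMA, at 0.19 and at background. Mlkl, the executor of necroptosis, differed by -0.05 and the caspase gene Casp9 by 0.16.

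Oligodendrocyte genes had the highest median of the lists. Of 13 genes 12 had a positive difference, 5 were higher and 0 lower at an unadjusted limma p under 0.05, and the median was 0.20, but 0 passed. Mobp, a protein of compact myelin, read 6.95, 3.50, 3.25, 6.10 and 1.76 times the negative probe in 5xFAD-LynKO columns 1 to 5, against 2.20, 4.12, 1.88, 2.78 and 2.19 in 5xFAD columns 1 to 5. The groups overlapped, with 5xFAD-LynKO columns 1 and 4 the highest and column 5 the lowest of the 10, and the difference was 0.59 with a 95% interval of -0.06 to 1.25 (limma adjusted p = 0.394). Mbp, which encodes myelin basic protein, differed by 0.39, Mag by 0.20, and Trf, the transferrin gene, which lies in the stretch, by 0.40 and by 0.21 after centring. The list's mean log2 level was 0.97, 0.49, 0.48, 0.72 and 0.26 in 5xFAD-LynKO columns 1 to 5, against 0.30, 0.57, 0.25, 0.38 and 0.23 in 5xFAD columns 1 to 5. The 2 highest, 5xFAD-LynKO columns 1 and 4, had the lowest pan-neuronal means of the 10 columns, 0.70 and 0.90, and the part of this in the difference was not tested.

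**Figure D5:**
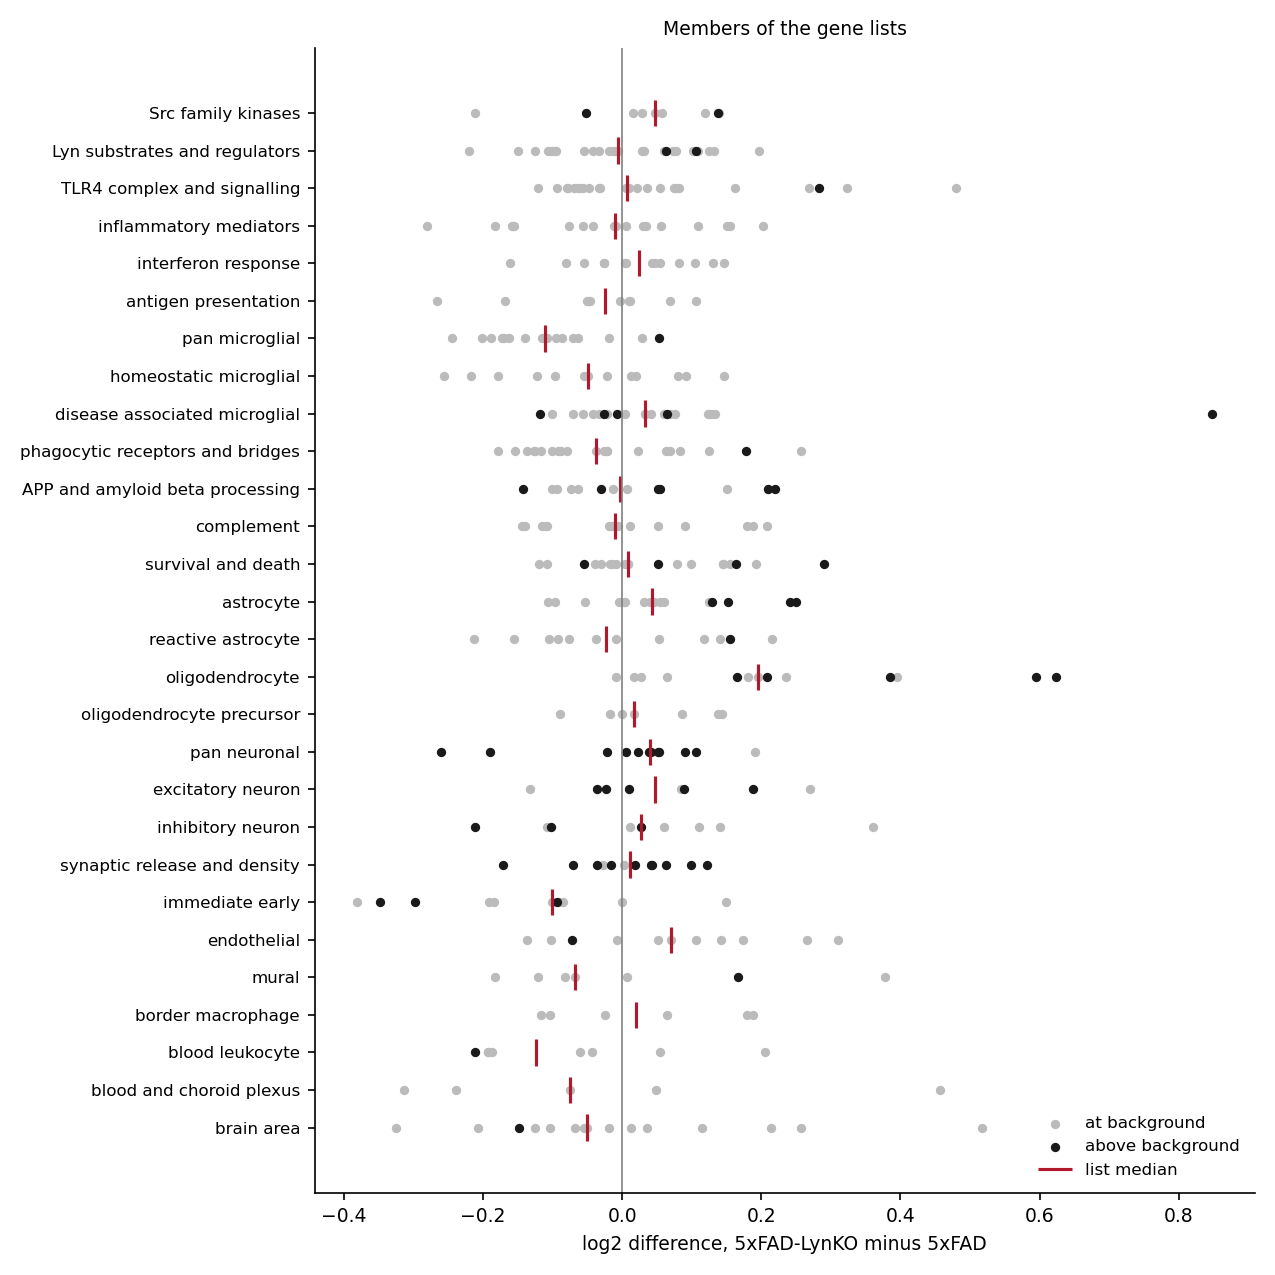
Log2 difference (5xFAD-LynKO minus 5xFAD) of each measured member of the named gene lists, black above background and grey at background, with the list median as a red line. The oligodendrocyte list has the highest median, 0.20, the pan-microglial median is -0.11, and Fth1 at 0.85 is the member farthest from 0.

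The medians of the astrocyte and neuronal lists were near 0, while single genes spread widely within each genotype. Of 16 astrocyte genes 0 were higher or lower at an unadjusted limma p under 0.05 and the median was 0.04. The glutamate transporter Slc1a2 read 4.28 to 9.62 times the negative probe in 5xFAD-LynKO columns and 3.10 to 6.82 in 5xFAD columns, and differed by 0.24 on the log2 scale (95% interval -0.71 to 1.19). Its mean was 5.97 in 5xFAD-LynKO and 5.05 in 5xFAD, while the medians, 4.68 in 5xFAD-LynKO and 6.00 in 5xFAD, ran the other way. Glutamine synthetase, Glul, differed by 0.25. Among 12 reactive astrocyte genes the oncostatin M receptor Osmr was lower at -0.21 and vimentin, Vim, which lies in the stretch, higher at 0.22, or 0.09 after centring. The medians were 0.04 for 13 pan-neuronal, 0.05 for 8 excitatory, 0.03 for 9 inhibitory and 0.01 for 12 synaptic genes. In these neuronal lists 1 excitatory and 1 inhibitory gene were higher at an unadjusted limma p under 0.05, and 0 genes were lower. Snap25, a synaptic vesicle fusion protein, averaged 8.87 times the negative probe in 5xFAD-LynKO and 8.37 in 5xFAD, and its values, 3.78 to 17.5 in 5xFAD-LynKO and 3.11 to 14.4 in 5xFAD, varied severalfold within each genotype.

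Immediate early genes, which neurons switch on after activity, had a median of -0.10. Of 11 genes 2 had a positive difference, 0 were higher and 2 lower at an unadjusted limma p under 0.05. Npas4, the member most bound to neuronal firing, read 0.998, 1.01, 1.15, 1.06 and 0.834 times the negative probe in 5xFAD-LynKO columns 1 to 5, against 1.17, 1.55, 1.31, 1.24 and 1.27 in 5xFAD columns 1 to 5. Every 5xFAD-LynKO column was lower, at background in both groups, with a difference of -0.38 (limma adjusted p = 0.105). Junb read 1.19, 1.69, 1.61, 1.39 and 1.09 in 5xFAD-LynKO columns 1 to 5, against 1.90, 2.05, 1.41, 2.13 and 1.36 in 5xFAD columns 1 to 5, a difference of -0.35 (limma adjusted p = 0.236). Within each genotype Arc varied more than between them, from 0.864 to 2.19 in 5xFAD-LynKO and from 0.983 to 2.61 in 5xFAD.

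Markers of vessels and of cells from the blood and brain borders were at or near background. Of 11 endothelial genes 2 were higher, Vwf and Tek, both in the stretch, at 0.31 and 0.27, or 0.12 for each after centring. The mural gene Vtn, also in the stretch, was at 0.38, or 0.19 after centring. Of 6 border macrophage genes 2 were higher at an unadjusted limma p under 0.05, the hyaluronan receptor Lyve1 at 0.19 and the scavenger receptor Cd163 at 0.18, with limma adjusted p of 0.212 and 0.240. Both lie outside the stretch and at background, and Mrc1, the mannose receptor of the same cells, differed by -0.03. Of 8 blood leukocyte genes 1 was higher, the chemokine receptor Ccr2 at 0.20, and 2 lower, the neutrophil gene S100a9 and the T-cell gene Cd8a at -0.21 and -0.19.

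Of the ribosomal and respiratory genes 0 passed, and most differences were positive. The same held for 68.1% of the 2010 targets above background, whose median was 0.05, a set that can be entered through 1 genotype alone. Of 81 cytosolic ribosomal protein genes 68 had a positive difference and 59 were above background, with a median of 0.10 and 0 higher or lower at an unadjusted limma p under 0.05. The list's mean log2 level was 0.47, 0.88, 0.74, 0.71 and 1.21 in 5xFAD-LynKO columns 1 to 5, against 0.59, 0.70, 0.74, 0.77 and 0.78 in 5xFAD columns 1 to 5. The 5xFAD-LynKO columns surrounded the 5xFAD columns, with column 5 the highest and column 1 the lowest of the 10. Of 75 nuclear genes of oxidative phosphorylation 51 had a positive difference, 4 were higher and 2 lower, with a median of 0.05. Cox6a2, a muscle-type subunit of cytochrome oxidase, did not overlap between the groups and differed by -0.27 (limma adjusted p = 0.128).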

How the data were processed

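The members and gene lists were chosen with earlier results of these data known. The deposited values are a signal per target, never negative, and the sources used here name no software, filter or normalization for it. All columns of a genotype share a deposited median, 196.1 for 5xFAD-LynKO and 159.4 for 5xFAD, so the signal was rescaled: each column was divided by its median over 19962 targets and log2 taken, with no pseudocount or filter. The negative probe was not subtracted, so any true differences of targets near it are understated. Within a column 19959 of 19963 values are whole multiples of a common step, to within 0.0001 of a step, and dividing by it gave the implied counts. They are no record of raw counts, so no count model was used for the differences between genotypes.

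The 10 columns were compared with limma 3.58.1 in R 4.3.3 (lmFit, eBayes with a mean trend) and Benjamini-Hochberg adjustment over all targets. Single values had an exact two-sided permutation test over columns. No source says that columns are separate animals. Heading numbers are not known to pair the columns. Same-numbered columns deviated together with correlations of mixed sign, 0.32, 0.53, -0.48, -0.18 and 0.57, which do not settle it. Genes named are Lyn, Tlr4, Tmem119, Gfap and App, up to 12 passing targets in each direction with free places filled from those above background by p, the 4 lowest p at background each way, and up to 6 of each list by p and level; the text uses part of them. Several genes stand in more than 1 of the 31 lists. Symbols are those of the table, of which 19822 match RefSeq symbols. The fit was tested on simulated data with 200 changed targets. Alternatives were other scalings, a filter, background subtraction, weights, a replicate block, a neuronal covariate, all 16 columns and each column left out. Figures were drawn with matplotlib.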

Additional observations from a re-analysis of the deposited data

How the results depend on the processing

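The count of 4 passing targets was sensitive to the setting. It was 0 with all 16 columns in the fit, 0 with the heading number as a replicate block (smallest adjusted p = 0.0548) and 0 with no mean trend. It was 1 with upper quartile scaling, with centring on table neighbours and with 5xFAD columns 3 and 5 averaged, and 2 as a ratio to the negative probe or with the negative probe subtracted. It was 111 with quantile normalization, 351 with array weights and 198 with the pan-neuronal level as a covariate, of which 89, 250 and 158 were higher and 79, 209 and 134 of those lay in the stretch. Leaving out each column gave 0 to 687, with 687 without 5xFAD column 4 (511 higher, 428 of them in the stretch) and 0 or 1 otherwise. Above background the count of 0 became 9 with quantile normalization, 21 with array weights, 16 with the covariate and 0 to 41 with a column left out, 41 again without 5xFAD column 4. The causes were not tested.

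Left as deposited, the values differ by a median of 0.30 log2 between the genotypes, and 16061 targets passed, 1486 above background, with Lyn at 0.36 and Tlr4 at 0.78. This shift turned 20 named genes, all uncalled in the rescaled data, into positive calls: Fyn at 0.25, Pycard at 0.29, Cd74 at 0.25, Tap2 at 0.25, P2ry12 at 0.18, Sall1 at 0.24, Stab1 at 0.21, Gas6 at 0.28, Gja1 at 0.19, S100b at 0.20, Timp1 at 0.19, Pdgfra at 0.21, Sox10 at 0.28, Ly6c1 at 0.16, Cdh5 at 0.23, Pf4 at 0.18, F13a1 at 0.19, Mrc1 at 0.27, Plac8 at 0.24 and Olfr196 at 0.26. The direction of small differences therefore rests on the rescaling. The Tlr4 difference passed at 0.47 with quantile normalization, 0.48 with array weights, 0.48 with the covariate and 0.54 without 5xFAD column 4. Apart from the values as deposited, no other fit called Tlr4. Its limma adjusted p was 0.667 with the negative probe subtracted. Over the columns left out, the Tlr4 difference ran from 0.39 to 0.54. Lyn ran from 0.03 to 0.09 there, and the difference in targets over 2 times the negative probe from 52.55 to 280.3. The replicate block ended all 4 calls. Over 196 named genes, 214 values turned sign while uncalled in both fits. Most targets lie near the negative probe, so the depth of signal limits what these 10 columns can show.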
